A study of Rattus norvegicus with 2 samples.

Results

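Genes of heterotrimeric G protein and cyclic AMP signalling were compared between hippocampal synaptosomes and the total hippocampus of the rat. The members are genes whose probe sets the platform annotation ties to a single symbol beginning with Gna, Gnb, Gng, Rgs, Pde, Prkar or Prkac, or with Adcy and a digit. There were 53 such genes with 79 probe sets, of 4736 genes with a single symbol and 8799 probe sets in all. Synaptosomes are pinched-off nerve endings with attached postsynaptic membrane, prepared biochemically from hippocampi of Sprague Dawley rats at postnatal day 70. The other sample was RNA of whole hippocampus from rats of the same strain and age, with no treatment recorded for either. The study asked which mRNAs are enriched at the synapse. The labels do not give the sex of the animals or how many went into a sample. There was 1 array per group, so each signal below is a single measurement with no replicate error, and the groups could not be compared by a test.

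A receptor coupled to a G protein makes the alpha subunit exchange GDP for GTP and part from the beta-gamma dimer. Alpha-s stimulates adenylyl cyclase, alpha-i and alpha-o oppose it or act on channels, and RGS proteins end the signal by speeding GTP hydrolysis. The cyclic AMP that adenylyl cyclases make is removed by phosphodiesterases, and it frees the catalytic subunits of protein kinase A (PKA) from their regulatory subunits. In hippocampal neurons this pathway is known for its part in long-lasting synaptic potentiation and in the control of transmitter release.

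The values are linear array intensities. Signals under a floor of 846, the median of all non-control values, were set to that floor. The log2 ratio is synaptosomes minus total hippocampus, less its median of -0.17 over the probe sets past a filter on the mean log2 signal of both arrays (at least 10.07). This centring makes the fold of a higher gene 1.13 times the quotient of its signals, and that of a lower gene smaller by the same factor. A gene with several filtered probe sets is represented by the brightest. Of the 53 genes, 32 passed the filter, 29 of them above the floor on both arrays and 3 on the hippocampus array alone. A gene at the floor on 1 array passed only with a signal of about 1373 or more on the other, so those 3 had to differ, and their folds are bounds written "at least". Among all 2735 filtered genes, 319 were at the floor in synaptosomes alone and 241 in the hippocampus alone. For the 32 members these counts were 3 and 0. The size below which 95% of negative readings fell serves as a noise size: 2912.6 for synaptosomes and 5280.25 for the hippocampus. Folds and bounds that rest on signals under these sizes are uncertain.

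Most of these mRNAs had similar signals in both samples. Only Adcy3 was at least 2-fold higher in synaptosomes, which is 1 of 32 genes, beside 19.1% of all 2735 filtered genes. Gnb2, Gng8, Gng11 and Pde4c were at least 2-fold lower, which is 4 of 32, beside 14.3% of all filtered genes. Of the other 27, 26 lay between, and Adcy10 had a bound under 2-fold, at least 1.47-fold lower. Without the centring the shares over all genes were 14.7% higher and 19.5% lower, and 5 members were lower, Pde1b among them. Among the 29 members above the floor on both arrays, 1 was higher and 2 were lower by this threshold, beside 14.2% and 10.5% of 2175 such genes. Their log2 ratios ran from -1.11 to 1.90 with a standard deviation (SD) across genes of 0.69, against 0.89 over all such genes. Their median was 0.20, against 0.04. In these bulk RNA samples, fewer cells or endings of a type and less RNA in each cannot be told apart.

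**Figure D1:**
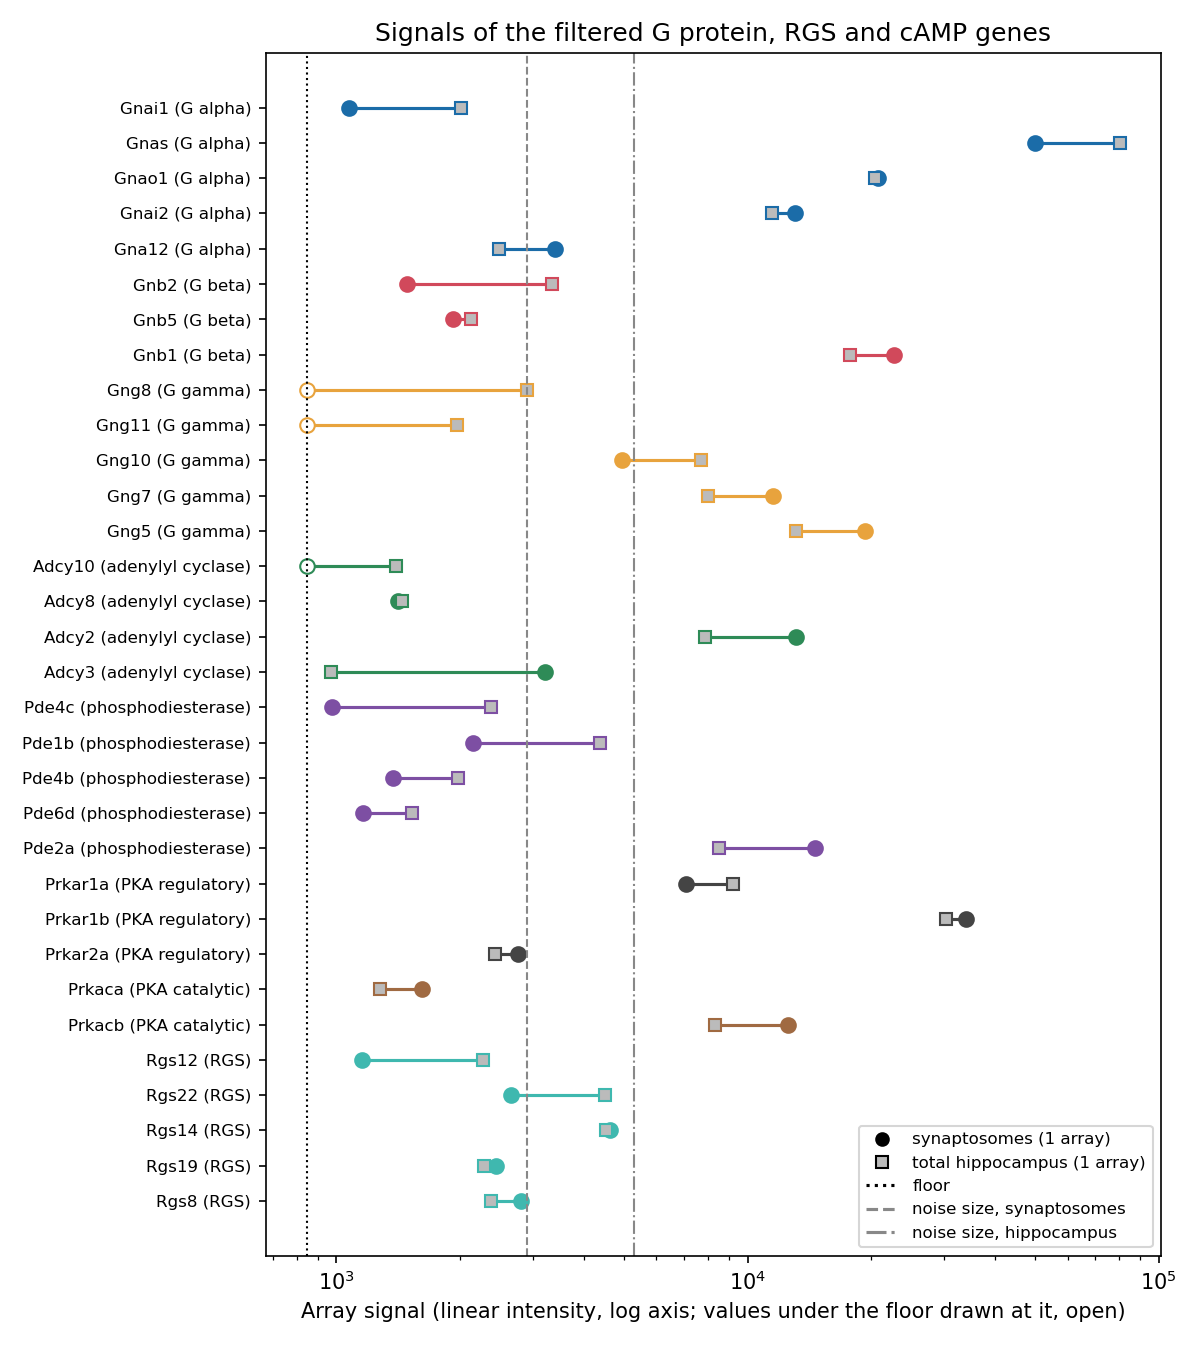
Signal of each of the 32 filtered genes on the synaptosome array (circles) and the total hippocampus array (squares), grouped by family, on a log axis of linear intensity; open symbols were under the floor of 846 and are drawn at it, and the other vertical lines mark the noise sizes of 2912.6 and 5280.25. For most genes both symbols lie close together, and the longest distances, those of Adcy3 and Gng8, belong to genes with a signal of 972 or less on the dimmer array.

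The 12 members whose signals exceeded the noise size on both arrays were all within 2-fold. Their log2 ratios ran from -0.52 for Gnas to 0.95 for Pde2a. Of 743 genes with signals past both noise sizes, 7.94% passed 2-fold upwards and 10.2% downwards. The median of the 12 was 0.44, against -0.11 over the 743 genes. Positive ratios were seen for 9 of the 12, beside 328 of the 743 genes. Each of the 9 stayed above 0 without the centring, while Gnas, Gng10 and Prkar1a were negative. The signs of Gnas and Gnao1 changed under some of the other processing settings, given at the end. All 5 members past 2-fold were among the 20 with a signal under the noise size on at least 1 array. Of these 20, 5.0% were higher and 20.0% lower, beside 23.2% and 15.8% of the 1992 filtered genes with such a signal.

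**Figure D2:**
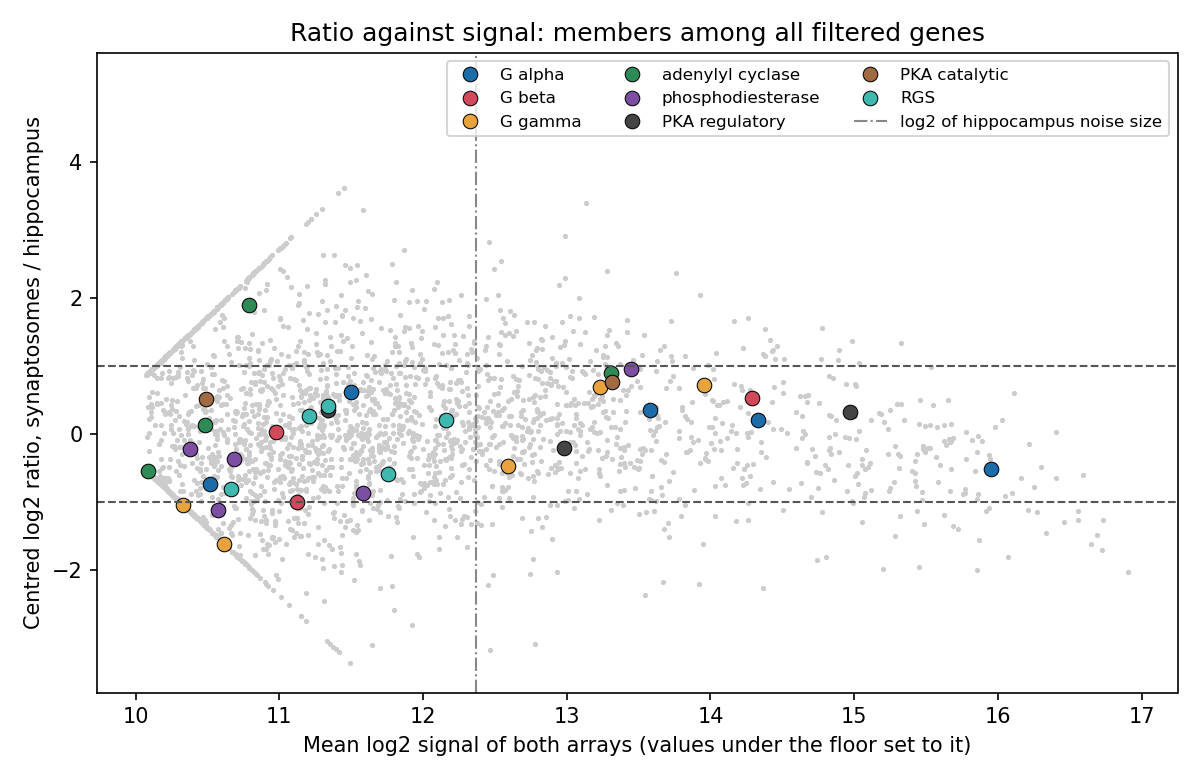
Centred log2 ratio of synaptosomes over total hippocampus against the mean log2 signal of both arrays, for the 2735 filtered genes (grey) and the 32 members (coloured by family); dashed lines mark 2-fold and the vertical line the log2 of the hippocampus noise size. To the right of that line the 12 coloured points lie between -0.52 and 0.95, and every coloured point outside the dashed lines is to its left.

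Among the alpha subunits, 5 of 9 genes passed the filter and none was 2-fold different, with a median log2 ratio of 0.20. Gnas encodes alpha-s, which activates adenylyl cyclase. Its 4 probe sets read 50054, 53721, 33453 and 8556 in synaptosomes and 80664, 65325, 30603 and 6918 in the hippocampus, in that order. Their log2 ratios were -0.52, -0.11, 0.30 and 0.48, so that the brighter pair was lower in synaptosomes and the dimmer pair higher. Gnao1, the alpha-o subunit known for its abundance in brain, read 20768 and 20391 with its brighter probe set and 13244 and 17269 with the other. The ratios of 0.20 and -0.21 had opposite signs. Gnai2, an inhibitory alpha subunit, had 3 probe sets that pointed the same way. They read 13057, 7972 and 4004 in synaptosomes against 11451, 6803 and 3006 in the hippocampus, with log2 ratios of 0.36, 0.40 and 0.58. Gnai1, a second inhibitory subunit, read 1071 and 2009, a ratio of -0.74 on signals under both noise sizes. Gna12, of the alpha-12 and alpha-13 class, read 3392 and 2479, a ratio of 0.62. Its other probe set did not pass the filter and read 759 and 1024. Gna15, Gnal, Gnat3 and Gnaz, known from blood cells, olfactory and striatal neurons, taste cells and brain in that order, stayed under the floor on both arrays.

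Beta and gamma subunits form the dimer that anchors the alpha subunit and itself acts on channels and enzymes. Gnb1 was measured by 3 probe sets that disagreed. The brightest read 22703 in synaptosomes and 17720 in the hippocampus, a log2 ratio of 0.53. A second design on the same source sequence read 3107 and 912, a ratio of 1.94. The third read 1232 and 2215, a ratio of -0.68. Only the first exceeded the noise size on both arrays. Gnb2 read 1483 and 3342, which is 2.0-fold lower and sits on the threshold. Gnb5, the atypical beta subunit that pairs with RGS proteins of the Rgs9 type, read 1918 and 2120, a ratio of 0.03 that turned to -0.14 without the centring. Gnb3 and Gnb4 were under the floor on both arrays.

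All 5 gamma genes passed the filter, 2 of them at the floor in synaptosomes, so that these 2 had to be lower to pass. Gng5 read 19266 in synaptosomes and 13143 in the hippocampus, a log2 ratio of 0.72. The other Gng5 probe set read 106 and -241 and has no ratio. Gng7, a subunit best known from striatal neurons, read 11503 and 8015, a ratio of 0.69, and its other probe set read 1461 and 1494. Gng10 lay the other way, with 4950 and 7712 and a ratio of -0.47. These 3 genes exceeded the noise size on both arrays. Gng8, known from olfactory neurons, read 424 and 2907 and was at least 3.05-fold lower. Its second probe set, on the same source sequence, read 747 and -54 and has no ratio. Gng11 read -1041 and 1962 and was at least 2.06-fold lower. Both bounds rest on hippocampus signals under the noise size of that array.

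Adenylyl cyclases, which make cyclic AMP, held the only member at least 2-fold higher. Adcy3, a cyclase of olfactory neurons and of primary cilia, read 3220 in synaptosomes and 972 in the hippocampus, which is 3.73-fold higher with a log2 ratio of 1.90. The hippocampus signal was close to the floor and under the noise size, so the size of the fold is uncertain, and with the floor at 2798.5 the ratio was 0.29. Adcy2, a cyclase that beta-gamma dimers can stimulate, read 13080 and 7888, a ratio of 0.90 or 1.87-fold. It was the one cyclase whose signals exceeded both noise sizes. Adcy8, which calcium and calmodulin stimulate, read 1414 and 1447, a ratio of 0.14 with the centring and -0.03 without it. Adcy10, the soluble cyclase activated by bicarbonate, read -8 and 1395 and was at least 1.47-fold lower. Of the 3 cyclases that did not pass the filter, Adcy5 had 1 of its 3 probe sets above the floor, at 1129 in synaptosomes against -1123, and Adcy4 and Adcy6 were under the floor on both arrays.

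Phosphodiesterases were measured for 12 genes, of which 5 passed the filter. Pde2a, which cyclic GMP stimulates and which degrades both cyclic nucleotides, was the only bright one. It read 14622 in synaptosomes and 8500 in the hippocampus, which is 1.94-fold higher with a log2 ratio of 0.95. The other 4 had negative ratios. Pde1b, the calmodulin-dependent enzyme, read 2149 and 4388, a ratio of -0.86, or -1.03 without the centring. Pde4c, of the cyclic AMP-specific Pde4 group, read 978 and 2375 and was 2.16-fold lower, while its second probe set on the same source sequence was negative on both arrays. Pde4b read 1371 and 1976 with its brightest probe set, a ratio of -0.36. A second design on the same source sequence read 2053 and 1272, a ratio of 0.86, so its direction depends on the probe set. Pde6d, a carrier of prenylated proteins rather than a catalytic subunit, read 1163 and 1529, a ratio of -0.22. These 4 genes were under both noise sizes. Pde3a, which cyclic GMP inhibits, and Pde7a, specific for cyclic AMP, read 1193 and 1187 in the hippocampus and 106 and 205 in synaptosomes, and did not pass the filter. Pde1c, Pde3b, Pde4a, Pde4d and Pde5a, the last being the cyclic GMP-specific target of sildenafil, never exceeded the floor, and no difference was detectable.

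Both catalytic subunits of PKA had positive ratios. Prkacb read 12530 in synaptosomes and 8312 in the hippocampus, a log2 ratio of 0.76 or 1.70-fold, past both noise sizes. Prkaca read 1617 and 1279, a ratio of 0.51 under them. Each had a second probe set under the floor on both arrays. The regulatory subunits, which hold the kinase inactive until cyclic AMP binds, lay nearer 0. Prkar1b, a type I subunit found mainly in the nervous system, read 33903 and 30415, a ratio of 0.33. Prkar2a, a type II subunit that binds anchoring proteins, read 2765 and 2435, a ratio of 0.35. Prkar1a, the widely expressed type I subunit, read 7068 and 9208, a ratio of -0.21. Prkar2b was under the floor on both arrays.

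RGS genes passed the filter in 5 of 9 cases, with 0 past 2-fold and a median log2 ratio of 0.20. Rgs14, known for its expression in hippocampal area CA2, read 4630 in synaptosomes and 4535 in the hippocampus, a ratio of 0.20. Rgs8 read 2810 and 2383, a ratio of 0.41, and Rgs19, also named GAIP, read 2447 and 2290, a ratio of 0.27. Rgs12, a large RGS protein with a PDZ domain, read 1155 and 2274, a ratio of -0.81. Rgs22 read 2664 and 4505, a ratio of -0.59. No RGS gene exceeded the noise size on both arrays. Rgs4, a neuronal RGS protein, read 1063 and 211 and did not pass the filter. Rgs1, Rgs9 and Rgs18 were under the floor on both arrays.

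**Figure D3:**
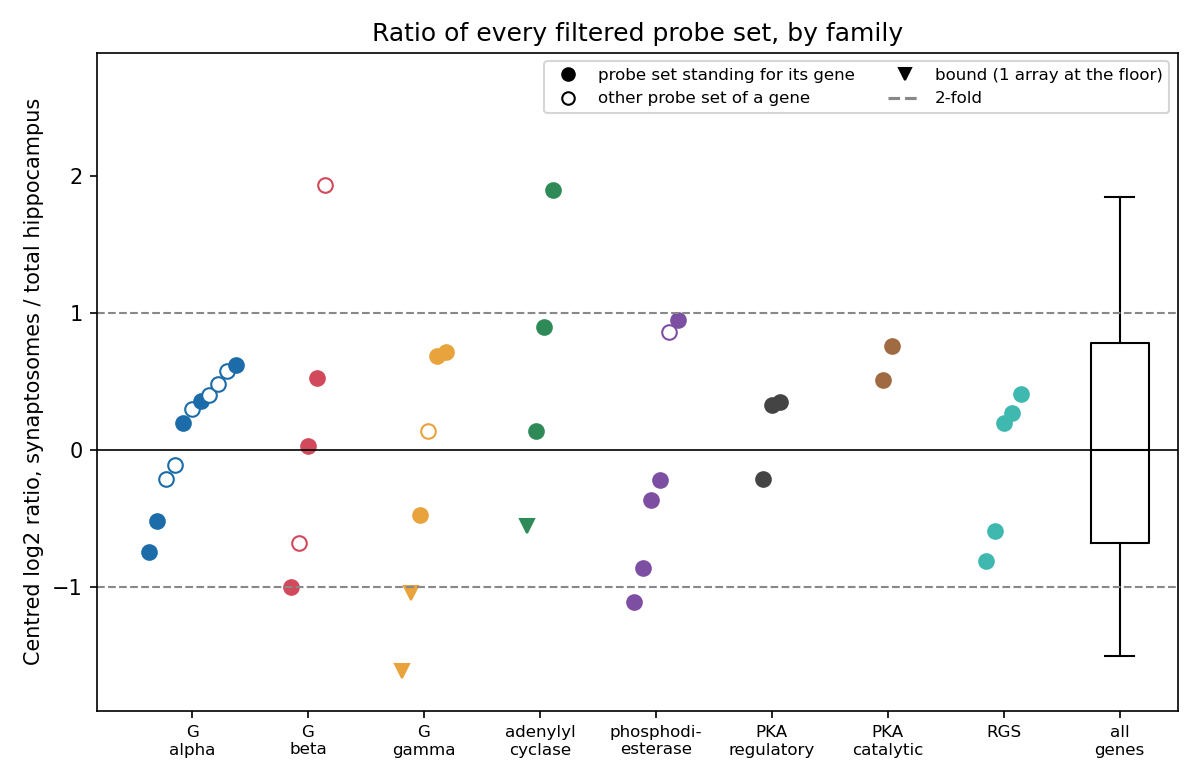
Centred log2 ratio of synaptosomes over total hippocampus for each of the 42 filtered probe sets of the members, by family, with filled symbols for the probe set that stands for its gene, open symbols for the others and triangles for bounds; the box at the right gives the quartiles of all 2735 filtered genes, with whiskers at percentiles 5 and 95. Each family except the PKA catalytic subunits has points on both sides of 0, and the 3 Gnb1 points run from -0.68 to 1.94.

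Besides the noise sizes, probe sets of one gene gave a measure of error within these arrays, which leaves out animals and preparations. Of the members, 6 genes had several filtered probe sets, and within a gene their log2 ratios had an SD of 0.71, against 0.90 over 658 genes. Gnai2 and Gng7 were the 2 in which all had one sign, and without the centring the dimmer probe set of Gng7 turned to -0.03. For 9 source sequences the array carried 2 probe sets, and in 5 of these both were above the floor on both arrays. Their log2 ratios differed by 0.18 for Gnai2, 0.41 for Gnao1, 0.41 for Gnas, 1.22 for Pde4b and 1.41 for Gnb1. In the other 4, of Gnb5, Gng8, Pde4c and Prkaca, 1 probe set was under the floor on both arrays. The ratios of 0.95 for Pde2a, 0.90 for Adcy2 and 0.76 for Prkacb, each from 1 probe set above the floor, were close in size to these SDs. A single probe set was all that 34 of the 53 genes had.

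Other genes of the pathway were read from a list of anchors, targets and regulators. Of 53 such genes on the array, 26 passed the filter, with 2 higher and 5 lower by at least 2-fold, beside 19.1% and 14.3% of all genes. Rapgef4 encodes Epac2, a guanine nucleotide exchange factor for Rap that cyclic AMP activates directly. It read 8948 in synaptosomes and 2152 in the hippocampus, a log2 ratio of 2.23 or 4.68-fold on 1 filtered probe set, with the hippocampus signal under the noise size. Ezr, or ezrin, which links membrane to actin and can anchor PKA, read 2565 and 924 and was 3.12-fold higher. Both Ezr signals were under the noise sizes and that of the hippocampus was close to the floor, so the size of the fold is uncertain. The 5 genes with a PKA anchor or inhibitor role that passed had a median of 0.69. Among them Map2, the dendritic microtubule protein that binds PKA, had a ratio of 0.69 with its brightest probe set and of -0.59, -0.21, 0.87 and 0.90 with the others. Akap11 had a ratio of -0.45. Akap1 had ratios of 0.27 and -1.85 with its 2 filtered probe sets, and its others were under the floor on both arrays.

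Genes of cyclic GMP signalling included 4 of those 5 lower genes, 2 of them as bounds. Of 10 on the array 8 passed, 3 of them at the floor in synaptosomes, so that these 3 had to be lower to pass. Of the 5 above the floor on both arrays, 2 were at least 2-fold lower and 0 at least 2-fold higher, beside 10.5% and 14.2% of all such genes. Their median log2 ratio was -0.76, against 0.04. Npr2, the receptor of C-type natriuretic peptide, read 1791 in synaptosomes and 4096 in the hippocampus and was 2.03-fold lower. Gucy2c, the guanylin receptor, read 1958 and 4755 and was 2.16-fold lower. Gucy1a1, a subunit of the nitric oxide receptor, read 686 and 2478 and was at least 2.60-fold lower, and its partner Gucy1b1 read 2952 and 3016, a ratio of 0.14. Gucy2e, another guanylyl cyclase, read 461 and 2881 and was at least 3.03-fold lower. All 8 hippocampus signals were under the noise size. Cnga3, a cyclic nucleotide-gated channel, was the remaining lower gene, with 1264 and 3903 and a 2.74-fold difference. Both of these signals were under the noise sizes, and the other Cnga3 probe set was under the floor on both arrays. The 3 receptor kinases and the 4 G protein regulators and effectors that passed were within 2-fold, from -0.97 for Pdcl to 0.87 for Plcb1, the phospholipase C that alpha-q activates.

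**Figure D4:**
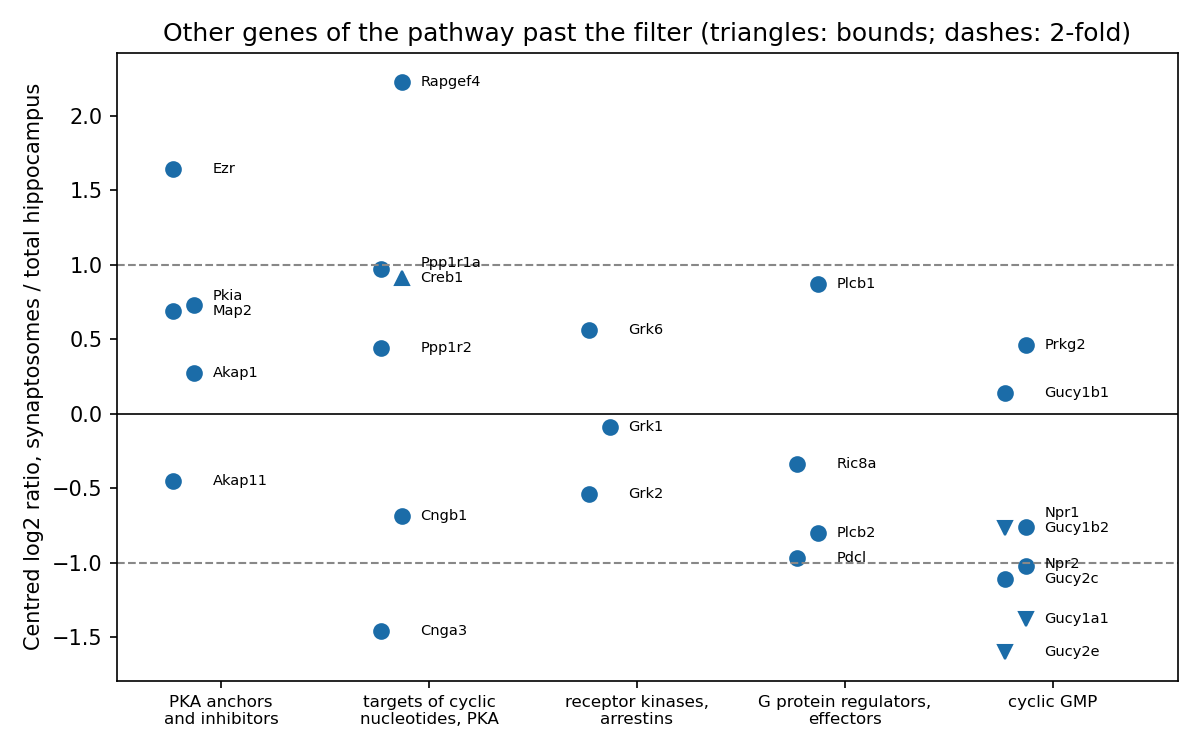
Centred log2 ratio of synaptosomes over total hippocampus for the 26 filtered genes of the pathway outside the member families, in 5 groups, with triangles for bounds and dashed lines at 2-fold. Rapgef4 at 2.23 and Ezr at 1.64 lie above the upper line, and 4 of the 5 points below the lower line are cyclic GMP genes.

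Markers of the cells in the samples were read on the same scale. All 8 neuronal markers on the array passed the filter, with a median log2 ratio of 0.21. Without the centring 4 were positive and 4 negative. Their summed signal was 110007 in synaptosomes and 169223 in the hippocampus. The lower sum in synaptosomes came from Snap25, which read 32782 and 109086. It was the only neuronal marker past 2-fold, at 2.96-fold lower. Of 5 oligodendrocyte markers, 3 were at least 2-fold lower and 1 higher, and their summed signal was 22946 in synaptosomes and 41456 in the hippocampus. Vessel and blood markers summed to 13101 and 46086 over 4 genes, of which 2 were at least 2-fold lower. Most of the gap between these sums came from Hbb, a globin, which read 6811 and 35126 and was 4.58-fold lower. Flt1 was 2.31-fold lower, Pecam1 and Alas2 had ratios of 0.38 and -0.09, and Vwf was under the floor on both arrays. Astrocyte markers summed to 167455 and 167035 over 6 genes, with S100b 2.53-fold higher and Gja1 at least 1.97-fold lower. The near-equal sums combine 2 bright genes that went opposite ways. S100b read 61538 and 27401, and Aldoc read 64325 and 101688, a log2 ratio of -0.49. Aqp4 had a ratio of 0.24 and Slc1a3, with its brightest probe set, of 0.70. Slc1a2 was 2.85-fold lower with its brightest probe set, a log2 ratio of -1.51. Its other filtered probe sets had ratios of 1.24 and -0.77, so its direction depends on the probe set. All Slc1a2 signals in the hippocampus were under the noise size. Of 5 microglial markers 2 passed. The ratios of Aif1 were 0.98 with its brightest probe set and 2.74 with another, whose hippocampus signal of 1267 was under the noise size. The remaining Aif1 probe set was under the floor on both arrays. Ptprc read 400 and 1521 and was at least 1.6-fold lower, with the hippocampus signal under the noise size. Cx3cr1 read 797 and 1262 and did not pass the filter, and Csf1r and Itgam were under the floor on both arrays. The part of these cells in the ratios above was not tested.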

How the data were processed

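RNA of synaptosomes and of total hippocampus was hybridised to 1 array each. Per the labels' protocols, the RNA was copied with a SMART kit from an oligo(dT) primer with a T7 sequence and transcribed into cRNA with biotin nucleotides. The values deposited by the authors are linear intensities; which software made them, and how background was corrected, is not given in the sources used here. Of the non-control intensities, 25.2% (synaptosomes) and 31.4% (hippocampus) were at or below 0. The mean after removal of 2% of probe sets at each end was 2504 and 2505, so the arrays were taken as scaled by the authors. Floor, log2 ratio, centring and filter are as the results state; the floor and filter are percentile 50. Symbols came from the platform annotation, and all 53 gene identifiers were found in RefSeq (GRCr8) with 0 symbols changed. Members with several symbols (2 probe sets) were left out. Every member is named; other pathway genes are named if at least 2-fold different, while Map2, Akap1, Akap11, Gucy1b1, Pdcl and Plcb1 were chosen after their values were seen. Members and lists were chosen with earlier results of these data known. The number of arrays limits the precision. Python 3.11.15, NumPy 2.4.6, pandas 2.3.3, statsmodels 0.14.6 and matplotlib 3.10.9 were used, and the calculation was tested on simulated data.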

Additional observations from a re-analysis of the deposited data

How the results depend on the processing

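The calculation was repeated under 10 alternatives. Without the centring the members' median was 0.00 and 5 genes were lower. With the floor at 2798.5 and with the filter at percentile 75 the counts at least 2-fold higher and lower were 0 and 0, over 20 and 18 members. Without suffixed probe sets they were 2 and 1, with Gnb1 joining Adcy3. Keeping genes above the floor on each array left 2 lower, and requiring a signal past the noise size on at least 1 array left 0 lower. No filter, the mean over probe sets, quantile normalization and loess correction left 1 higher and 4 lower. Of 268 values of single genes, 265 moved by less than 0.90, the SD within a gene over 658 genes. Removing the centring or changing the filter or noise setting shifts every kept gene by the same constant, so those values could hardly reach 0.90. The mean over probe sets cannot move a gene with 1 filtered probe set. Within that size Gnas still changed sign, from -0.52 to 0.13 with quantile normalization. So did Gnao1, from 0.20 to -0.20 without suffixed probe sets. Genes that an alternative left out have no value there, and the stricter floor, filter and noise settings kept only 20, 18 and 15 of the 32 members. Gng8 turned from -1.61 to 0.03 with the floor at 2798.5, a floor just under its hippocampus signal of 2907. The 2 others that moved further were Adcy3, to 0.29 with that floor, and Gnb1, to 1.96 without suffixed probe sets. Low signal over background limits all members past 2-fold. No paired analysis was possible because there was 1 array per group.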
